A study of Mus musculus with 4 samples.

Results

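The genes described here are those of the mRNA table to which at least 20 reads were assigned in the total RNA library of untreated N2a cells. They number 11111 of the 22287 genes in the table, which is 49.9%. N2a (Neuro-2a) is a mouse neuroblastoma line, a clone of tumour cells that divide in culture and can grow neurites. The series held 4 libraries, a total RNA and a small RNA library of untreated cells and the same pair from cells given 300 µM manganese for 48 h, with 1 library in each group. Total RNA was depleted of ribosomal RNA before sequencing, per the labels' protocols. The labels give the strain as C57BL/6, whereas Neuro-2a is generally described as derived from a strain A mouse. All 4 libraries carry identical treatment text, and the untreated library is known only from its title. No dose or vehicle is given for it, and nothing in the labels names a passage or a number of cultures. With 1 library there is no replicate, no spread and no test. Each interval below is an exact 95% interval that covers counting error only, and reads amplified by PCR without molecular identifiers are not independent molecules.

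Neuroblastoma arises from the sympathoadrenal branch of the neural crest, the cells that go on to form sympathetic neurons and the adrenal medulla. These cells are known for the transcription factors Phox2a, Hand2 and Gata3, for the synthesis of noradrenaline, and for the receptors of neurotrophins and of GDNF. Neuroblastoma lines are known to lie between an adrenergic state, led by these factors, and a mesenchymal state, led by factors such as Prrx1 and Fosl1. N2a is widely used in work on neurites, prions, amyloid and ion channels.

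The library held 13972460 reads assigned to genes. Level is given as FPKM, fragments per kilobase of transcript scaled to library depth, as computed by the authors, which is the scale on which genes are compared here. The median FPKM was 5.53 over the 11111 genes and 0.35 over all 22287. The middle 50% of the 11111 genes lay between 1.97 and 17.3 FPKM, and the range ran from 0.1 to 8299. An FPKM of 1 was reached by 9718 of them, 10 by 4017, 100 by 533 and 1000 by 63. At the threshold itself, the 40 genes with exactly 20 reads had a median of 0.34 FPKM, and the 30 genes with exactly 19 reads had 0.365. The transcript length behind FPKM is not stated in the table, and the length implied by count and FPKM differed from that implied in the Mn-treated library by over 0.5 (log2) for 3.71% of the 8678 genes with at least 100 reads in both. Where that other length moves the value of a gene named below by over 1.5 times, both values are given. No reads were assigned to 8993 genes (40.4%). A count of 0 allows up to 2.15e-05% of the reads, taking 3 counts as the limit. Counts are estimates and were not whole for 2332 of the 11111 genes (21.0%), as arises when reads are divided between gene models, so that their values are uncertain beyond the interval.

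**Figure D1:**
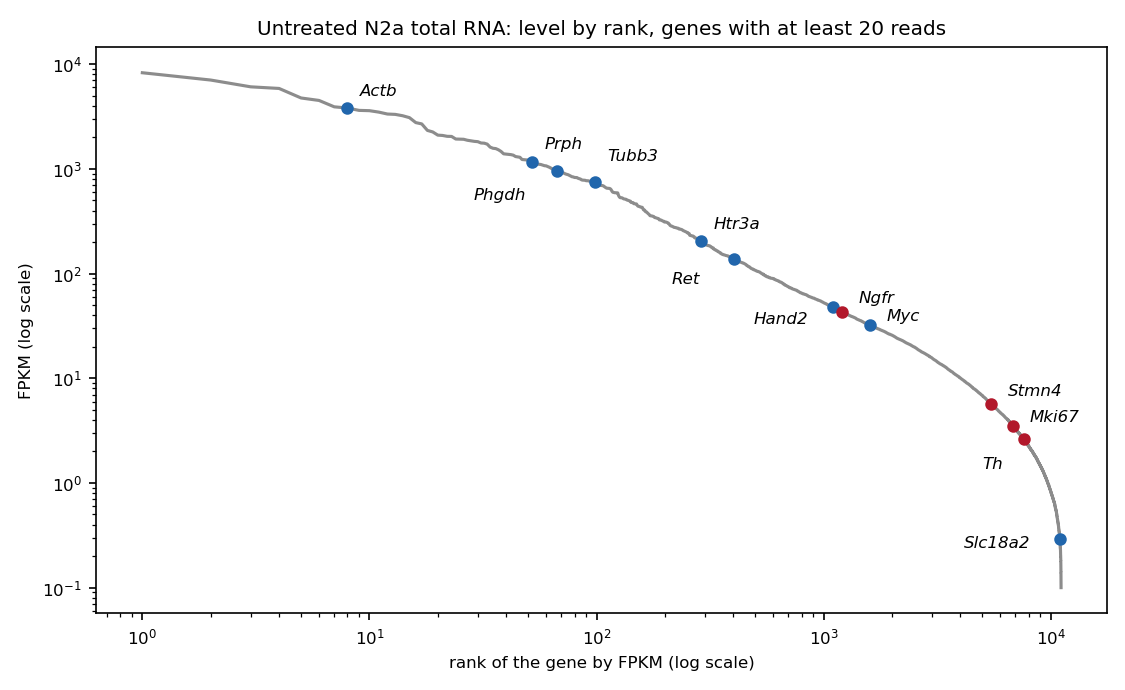
FPKM (log scale) of the 11111 genes with at least 20 reads against their rank by FPKM (log scale), untreated total RNA library. The grey line joins all genes, red points mark Ngfr, Stmn4, Mki67 and Th, and blue points mark other genes named in the text, from Actb at 3819 FPKM to Slc18a2 at 0.29.

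Protein synthesis, chromatin and the cytoskeleton took the top of the list. Ribosomal proteins held 10.8% of the reads (79 genes), histones 6.85% (70 genes), and tubulins and actins 3.47% (13 genes). The 13 protein genes of the mitochondrial genome held 1.96%, led by mt-Co3, a subunit of cytochrome oxidase, at 8299 FPKM. Eef2, the elongation factor that moves the ribosome along the message, had the most reads of any gene (267463, 1.91% of the library). The 100 genes with most reads held 30.1% and 419 genes held 50%. Of the 30 genes with the highest FPKM outside the mitochondrial genome, 16 were ribosomal proteins (counting Rack1), 7 were histones and 7 were others. The highest of each were Hist1h4n (7068 FPKM), a histone H4 gene, Rps14 (6088 FPKM) of the small ribosomal subunit, and Actb (3819 FPKM), the cytoplasmic beta-actin. The counts of 16 of these 30 genes were not whole, Hist1h4n and Actb among them. Another was Rpl10-ps3 (2257 FPKM), by its symbol a pseudogene copy of Rpl10, which is counted above with the ribosomal proteins.

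Transcription factors of the sympathoadrenal lineage were among the genes with reads. In a bulk library fewer cells with a transcript and less of it per cell cannot be told apart, here or below. At least 20 reads were found for 18 of the 27 factors listed, beside 49.9% of all genes. The list's median FPKM was 1.97, beside 0.35 for all genes. Lists, here and below, were chosen with earlier results of these data known, so such shares describe them and test nothing. Lmo1, a LIM-only cofactor tied to neuroblastoma risk, was the highest at 4179 reads and 169 FPKM (95% interval 164 to 175). Hand2, a basic helix-loop-helix factor of sympathetic neurons, followed at 2674 reads and 47.6 FPKM (95% interval 45.9 to 49.5), below Lmo1 by a factor of 3.56 (95% interval 3.39 to 3.74). The homeodomain factor Phox2a, which specifies autonomic neurons, had 38.7 FPKM. Gata2 (22 FPKM) lay above Gata3 (5.91 FPKM), both zinc finger factors of sympathetic neurons. Sox4 (21.9 FPKM) and Insm1 (11.7 FPKM), factors of neuronal and endocrine precursors, and Isl1 (8.16 FPKM, or 4.24 with the other length), a LIM homeodomain factor, were also read. Hand1, Tfap2a and Eya1 were at 0 reads, as were Ebf1 and Tlx2. Counts that were not whole were those of Lmo1, Phox2a, Gata2 and Gata3.

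All 10 genes of the Myc network listed had at least 20 reads, beside 49.9% of all genes. Myc and Mycn, the proliferative factors of which Mycn is the oncogene amplified in many human neuroblastomas, had 32.4 and 27.8 FPKM, a ratio of 1.16 (95% interval 1.09 to 1.25). Mycl had 2.3 FPKM. Among the partners, Max, which dimerises with all of them, had 9.76 FPKM (16.6 with the other length), and the antagonist Mxd3 was the highest at 18.5. The count of Myc was not whole.

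Of 21 genes of the mesenchymal state 8 had at least 20 reads and 8 were at 0 (38.1%), beside 49.9% and 40.4% of all genes in the table. The intermediate filament gene Vim had 2058 reads and 39.3 FPKM (95% interval 37.6 to 41) and the matrix gene Fn1, which encodes fibronectin, had 3723 reads and 26.4 FPKM (95% interval 25.6 to 27.3). Wwtr1 (TAZ), a coactivator of the Hippo pathway, had 5.65 FPKM, whereas its paralog Yap1 had 0 reads. The factors Prrx1, Fosl1, Runx1 and Snai2 were at 0 as well, with Twist1, Twist2 and Cd44. Of these 8 genes 1 was also at 0 in the Mn-treated library, and the others had up to 14 reads there. The count of Vim was not whole. Of the early neural crest and glial precursor genes, 6 of 17 had at least 20 reads. These were led by the RNA-binding protein gene Msi1 (58.6 FPKM), followed by Sox8 (10.4 FPKM) and Msi2 (6.91 FPKM), while Sox2, Sox5, Sox10 and Pax7 were at 0. None of the 9 midbrain dopamine neuron factors listed reached 20 reads, the highest being Nr4a2 with 13 reads and Foxa1 with 11. Lmx1a, Lmx1b, Foxa2 and En1 had 0.

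Hox genes, which record position along the body axis, were confined to the HoxC cluster among the 39 genes looked up. Hoxc10 had 246 reads and 5.4 FPKM (95% interval 4.75 to 6.12), Hoxc9 had 191 reads and 3.37 FPKM (95% interval 2.91 to 3.88) and Hoxc6 had 83 reads and 3.28 FPKM (95% interval 2.61 to 4.07). Hoxc10 lay above Hoxc9 by a factor of 1.6 (95% interval 1.32 to 1.95), whereas Hoxc9 and Hoxc6 did not differ beyond counting error, with a ratio of 1.03 (95% interval 0.79 to 1.35). Hoxc5 had 18 reads, just under the threshold, Hoxc8 had 2, and the other 34 genes had 0, every gene of the HoxA, HoxB and HoxD clusters included.

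The promoters of 5 genes that recur below are shown because they set lineage factors beside an abundant neuronal filament gene, a low enzyme gene and a gene without reads. Each is the 250 bases before the annotated start on the coding strand, from RefSeq on GRCm38.p6 (mouse), with CG dinucleotides in capitals.
Phox2a (chr7:101818063-101818312, plus strand): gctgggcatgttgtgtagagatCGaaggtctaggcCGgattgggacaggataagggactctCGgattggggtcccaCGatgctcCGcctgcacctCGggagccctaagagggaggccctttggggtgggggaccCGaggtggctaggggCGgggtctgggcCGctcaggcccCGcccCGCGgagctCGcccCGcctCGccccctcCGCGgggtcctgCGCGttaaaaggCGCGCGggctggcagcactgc
Hand2 (chr8:57320733-57320982, plus strand): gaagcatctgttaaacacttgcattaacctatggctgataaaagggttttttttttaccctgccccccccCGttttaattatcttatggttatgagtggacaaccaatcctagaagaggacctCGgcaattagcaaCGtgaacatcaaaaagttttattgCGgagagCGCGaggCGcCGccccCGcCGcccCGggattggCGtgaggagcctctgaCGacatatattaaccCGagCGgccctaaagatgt
Prph (chr15:99054924-99055173, plus strand): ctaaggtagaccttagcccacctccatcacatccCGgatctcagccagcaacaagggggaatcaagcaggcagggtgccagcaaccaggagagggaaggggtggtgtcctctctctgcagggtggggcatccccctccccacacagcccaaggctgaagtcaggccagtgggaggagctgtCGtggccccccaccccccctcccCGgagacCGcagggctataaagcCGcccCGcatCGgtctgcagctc
Th (chr7:142899996-142900245, minus strand): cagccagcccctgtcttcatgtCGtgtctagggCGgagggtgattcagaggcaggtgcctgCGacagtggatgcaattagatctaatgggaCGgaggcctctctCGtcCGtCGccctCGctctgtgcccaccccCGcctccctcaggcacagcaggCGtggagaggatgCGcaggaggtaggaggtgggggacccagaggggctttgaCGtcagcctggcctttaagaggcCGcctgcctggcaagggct
Ldhb (chr6:142507958-142508207, minus strand): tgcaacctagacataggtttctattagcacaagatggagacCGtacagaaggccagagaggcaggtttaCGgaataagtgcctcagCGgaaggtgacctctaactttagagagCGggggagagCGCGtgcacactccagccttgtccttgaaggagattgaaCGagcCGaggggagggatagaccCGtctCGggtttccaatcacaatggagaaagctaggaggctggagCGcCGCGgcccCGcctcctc
The run of Prph holds 7 CG dinucleotides and that of Phox2a 22, with 15 for Hand2, 13 for Th and 14 for Ldhb. Prph is also the only one of the 5 with the letters TATAAA, searched on either strand within 50 bases before the start, and they begin 31 bases before it. A promoter of 300 bases (250 before and 50 after the start) was matched by symbol for 8900 of the 11111 genes (80.1%). Per gene, with the ratio of observed to expected CG averaged over its starts, the median was 0.771. At any of their starts 76.8% of these genes were CG-rich, meaning a ratio of at least 0.6 with at least 50% G and C. Over all 32851 promoters of the RefSeq table, which reach beyond the genes of the mRNA table, each promoter was counted singly. There the median ratio was 0.384 and the CG-rich share 33.5%. TATAAA was found at any start of 1.92% of the matched genes and in 3.5% of the single promoters of the whole table. Shares per gene and per promoter are unlike measures, since a gene with several starts has more ways to count. The same check over genes with 0 reads is void, since only 71.2% of them had a promoter in the table.

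**Figure D2:**
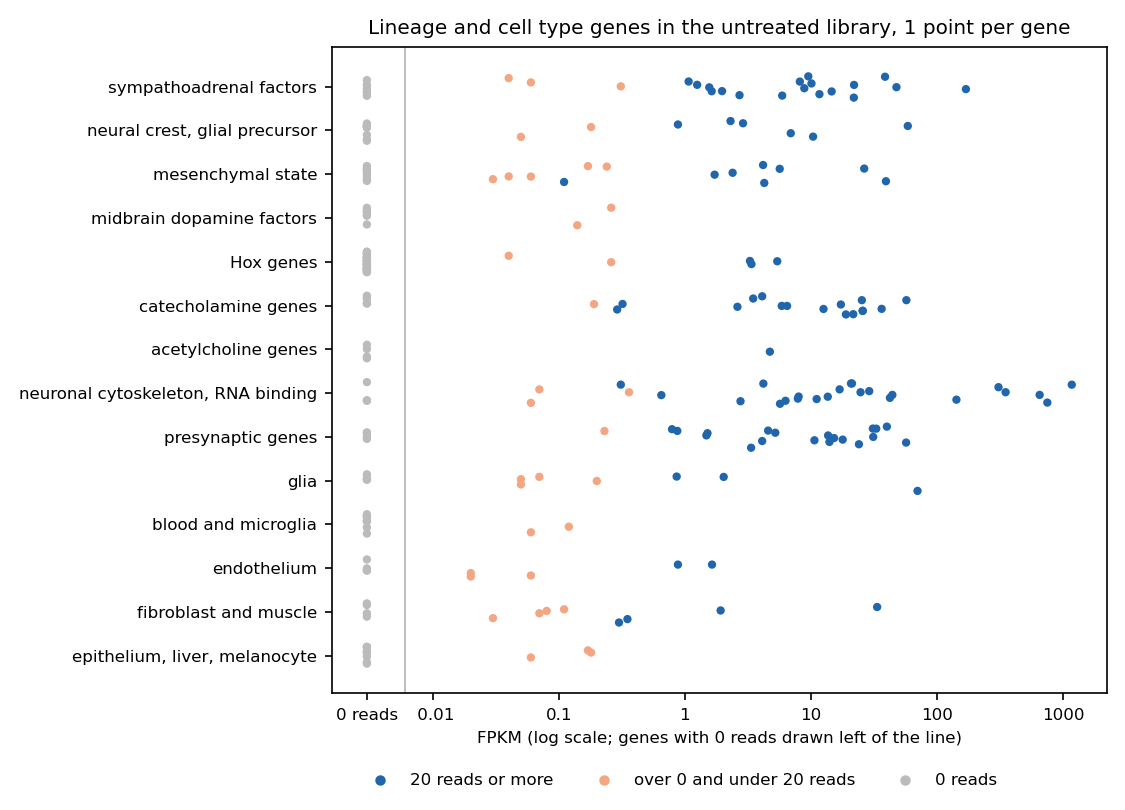
FPKM (log scale) of the genes of 14 lineage and cell type lists, 1 point per gene, untreated total RNA library. Blue points had at least 20 reads, orange points had fewer, and grey points left of the line had 0, among them most Hox genes and most markers of blood, epithelium and the midbrain dopamine lineage.

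The 4 genes used as markers of these cells all had at least 20 reads, at unequal levels. Ngfr, the p75 neurotrophin receptor, had 3572 reads and 43.4 FPKM (95% interval 42 to 44.9). Stmn4, a tubulin-binding stathmin of neurons, had 177 reads and 5.68 FPKM (95% interval 4.87 to 6.58), near the median of the 11111 genes. Mki67, the proliferation antigen, had 365 reads and 3.47 FPKM (95% interval 3.13 to 3.85). Th, tyrosine hydroxylase and the rate-limiting enzyme of catecholamine synthesis, had 88 reads and 2.61 FPKM (95% interval 2.09 to 3.22), below that median. With the other length Mki67 would have 1.54 FPKM, and its count was not whole. Markers of other cell types passed 20 reads less often than all genes did. Of 55 genes of glia, blood, endothelium, fibroblast, muscle, epithelium, liver and melanocytes, 9 had at least 20 reads and 30 had 0. The shares of all genes were 49.9% and 40.4%. Zeros were most frequent for blood (9 of 11 genes) and for epithelium, liver and melanocytes (9 of 12). They were less frequent for glia (4 of 11), endothelium (4 of 9), and fibroblast and muscle (4 of 12). None of the blood or epithelial markers reached 20 reads, and Ptprc, Aif1, Itgam, Cx3cr1 and Epcam were at 0. Pmp22 (70.01 FPKM), a myelin and growth arrest protein, and Acta2 (33.5 FPKM), the smooth muscle actin, carried most of the summed 113 FPKM of these lists. The astrocyte gene Gfap had 3 reads and the endothelial gene Cdh5 had 2. Of the Y-linked genes Ddx3y, Uty, Kdm5d and Eif2s3y none had a read, beside 905 reads of the X-linked Eif2s3x.

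Catecholamine genes were highest at cofactor synthesis and granule proteins, while Ddc, Pnmt and the genes of uptake and of the monoamine oxidases were at or near 0 reads. At least 20 reads were found for 16 of 22 genes (72.7%), beside 49.9% of all genes. The list's median was 4.98 FPKM, beside 0.35 for all genes. Gch1, which makes the tetrahydrobiopterin cofactor of Th, was the highest at 3784 reads and 57.1 FPKM (95% interval 55.3 to 59), and it exceeded Th by a factor of 21.9 (95% interval 17.7 to 27.3). Other cofactor enzymes, Qdpr (25.7 FPKM), Pcbd1 (25.3 FPKM) and Spr (21.6 FPKM), lay close together. Dbh, which turns dopamine into noradrenaline, had 250 reads and 4.1 FPKM (95% interval 3.61 to 4.64), above Th by a factor of 1.57 (95% interval 1.23 to 2.03). Ddc, the decarboxylase between them, had 4 reads. The vesicular monoamine transporters Slc18a1 and Slc18a2 were near the threshold, with 24 and 26 reads. At 0 reads were Pnmt, which makes adrenaline, the plasma membrane transporters Slc6a2 and Slc6a3, and the monoamine oxidases Maoa and Maob. Granule genes were higher: Chga had 36.3 FPKM and Scg5 had 25.8. For acetylcholine, only the hydrolase gene Ache (4.72 FPKM) of 5 genes listed passed 20 reads, and Chat, Slc18a3, Slc5a7 and Bche had 0. Among the 20 genes of other transmitters, Glul (60.3 FPKM), glutamine synthetase, and the glycine transporter Slc6a9 (25.4 FPKM) were the highest, and Tph1 (3.35 FPKM), of serotonin synthesis, was also read. Gad1, Gad2, Slc32a1 and Slc17a6, which make GABA or load GABA and glutamate into vesicles, were at 0. Of 22 neuropeptide genes 6 passed (27.3%). They were led by Vgf, a secreted neuronal granule protein, at 7242 reads and 123 FPKM (95% interval 120.2 to 126). Npy, Vip, Sst and Penk were at 0.

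The neuronal cytoskeleton was the most abundant neuronal group. Of 29 cytoskeletal and RNA-binding genes of neurons 23 had at least 20 reads (79.3%), beside 49.9% of all genes. Their list had a median of 11.1 FPKM, beside 0.35 for all genes. Prph, the peripheral neuron intermediate filament peripherin, was the highest at 47911 reads and 1171 FPKM (95% interval 1161 to 1182). Tubb3, the neuronal beta-tubulin, had 33400 reads and 749.5 FPKM (95% interval 742 to 758). Peripherin stood far from the other neurofilament genes: it exceeded Ina by a factor of 106 (95% interval 98.7 to 113), and Nefl and Nefm had 0 reads. Uchl1, a ubiquitin hydrolase abundant in neurons, had 651 FPKM, and the stathmins Stmn3 and Stmn1 had 349.8 and 307. Rbfox3, which encodes the mature neuron marker NeuN, had 0 reads. Genes of vesicle release passed 20 reads in 19 of 24 cases (79.2%). They were led by the complexin Cplx1 (56.8 FPKM), Syp (39.99 FPKM), which encodes synaptophysin, and the synapsin Syn2 (32.9 FPKM). Snap25, the neuronal SNARE, had 4.1 FPKM. At postsynaptic sites 11 of 15 passed (73.3%). The scaffold gene Dlg4 (PSD-95), at 5092 reads and 85.5 FPKM (95% interval 83.2 to 87.9), stood above Arc (19.3 FPKM), an activity-regulated gene, and Homer3 (11.3 FPKM). The counts of Stmn1 and Syn2 were not whole.

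Among receptor tyrosine kinases, Ret was by far the highest. It is the signalling receptor for the GDNF family and had 15228 reads and 138 FPKM (95% interval 136 to 140.1). Of 58 kinases 25 had at least 20 reads and 25 had 0 (43.1% each), near the 49.9% and 40.4% of all genes. The collagen receptors Ddr1 (36.1 FPKM) and Ddr2 (19.2 FPKM) were next, and Ret exceeded Ddr1 by a factor of 3.82 (95% interval 3.66 to 3.99). Alk, a kinase often mutated in neuroblastoma, had 142 reads and 1.09 FPKM (95% interval 0.921 to 1.29). Egfr, Erbb4, Kit, Met and Ntrk2 were at 0 reads. The Ret co-receptor genes Gfra1 and Gfra2 were low. Gfra1 had 56 reads and 0.78 FPKM (95% interval 0.589 to 1.01), below Ret by a factor of 177 (95% interval 136 to 234), and Gfra2 had 15 reads. Of the ligands, Vegfa (30.2 FPKM) was the highest of the list, Artn, a GDNF family ligand, had 24 reads, and Bdnf, Gdnf and Igf2 had 0. Not whole were the counts of Ddr2 and Alk.

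Nuclear receptors passed 20 reads in 23 of 48 cases (47.9%), a share near the 49.9% of all genes. Rxrb, a common dimer partner, had 3897 reads and 68.4 FPKM (95% interval 66.3 to 70.6), followed by the thyroid hormone receptor Thra (44 FPKM), the orphan receptor Esrra (33.1 FPKM) and the sterol receptor Nr1h2 (20.9 FPKM). The second thyroid hormone receptor gene, Thrb, was at 0. Rara (11.2 FPKM), a receptor of retinoic acid, which is widely used to differentiate neuroblastoma cells, lay above Rarg (5.12 FPKM), and Rarb had 0 reads. In retinoid handling 5 of 14 genes passed (35.7%). The retinol carrier Rbp4 (18.8 FPKM) and the reductase Rdh11 (6.82 FPKM) were first, and the binding protein gene Crabp1 was at 0. The count of Rarg was not whole.

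Most transmitter receptor genes listed had under 20 reads, and Htr3a was the highest of those read. Htr3a, a subunit of the serotonin-gated ion channel, had 9805 reads and 204 FPKM (95% interval 199.6 to 208), which is 17.6 (95% interval 16.1 to 19.3) times the next ligand-gated channel gene, P2rx7, an ATP receptor. Its partner subunit Htr3b had 109 reads and 1.89 FPKM (95% interval 1.55 to 2.28), a ratio of 108 (95% interval 89.2 to 131). Of the 67 ligand-gated channel genes 15 had at least 20 reads (22.4%) and 45 had 0 (67.2%), beside 49.9% and 40.4% of all genes. The kainate subunit Grik5 (11.2 FPKM), the ATP receptor P2rx4 (9.7 FPKM), the NMDA subunit Grin1 (8.51 FPKM) and the ganglionic nicotinic subunit Chrna3 (7.68 FPKM) were close to P2rx7 (11.6 FPKM). Grin1 had these reads while Grin2a and Grin2b, which encode some of its partner subunits, had 0 each. Receptors coupled to G proteins passed in 14 of 67 cases (20.9%), and 45 were at 0 (67.2%). The adenosine receptor Adora2a was the highest at 769 reads and 21 FPKM (95% interval 19.5 to 22.5). Gabbr1, a subunit of the metabotropic GABA receptor, had 7.55 FPKM, the muscarinic receptor Chrm4 had 5.99 and the cannabinoid receptor Cnr1 had 5.44. Gabbr2, the obligate partner of Gabbr1, had 8 reads. In this group P2rx7, Chrna3 and Adora2a had counts that were not whole.

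**Figure D3:**
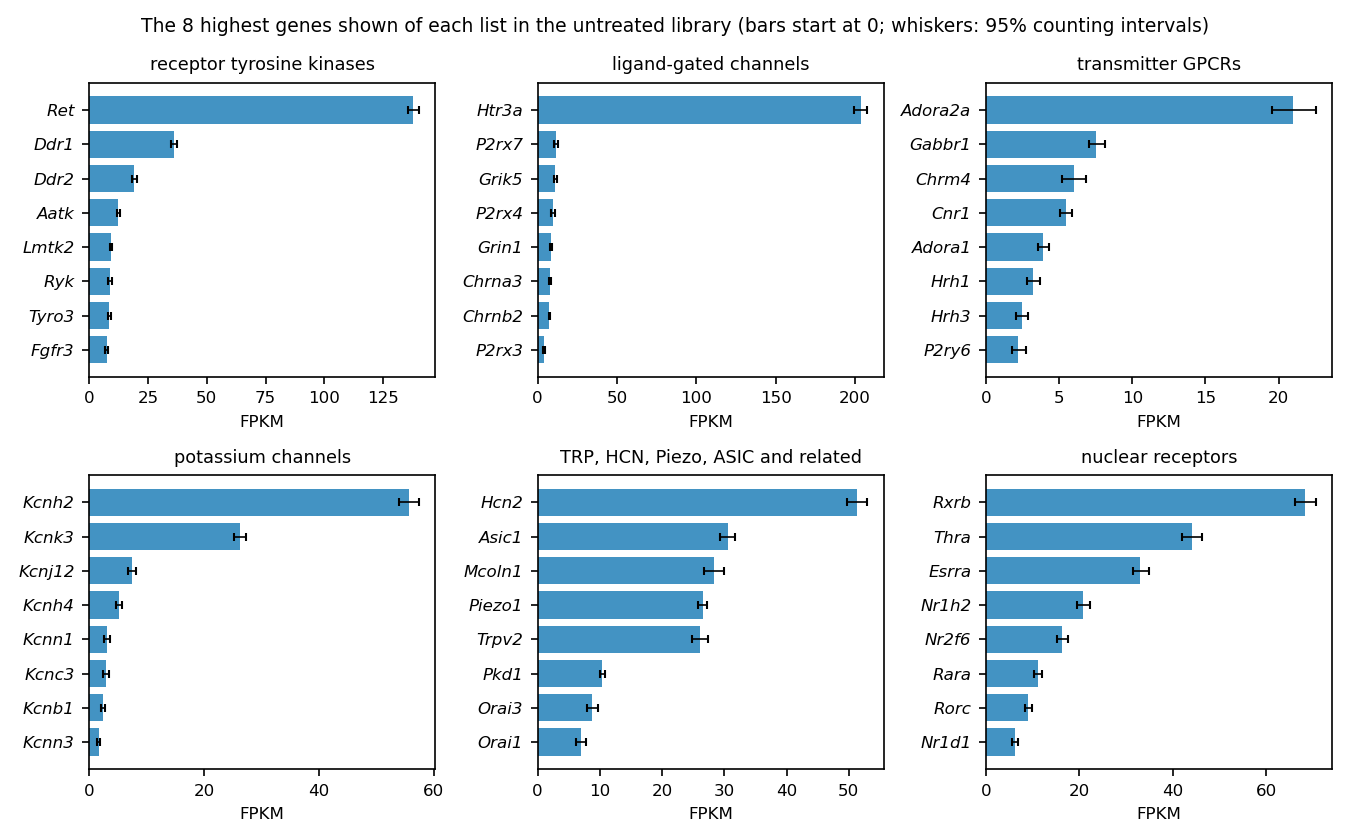
FPKM (linear, bars from 0) of the 8 highest genes shown in each of 6 receptor and channel lists, untreated total RNA library, with whiskers for the exact 95% counting interval. Ret (138 FPKM) and Htr3a (204 FPKM) stand well above the next gene of their lists, Ddr1 and P2rx7.

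Of 216 voltage-gated and related channel genes 75 had at least 20 reads and 106 had 0, where 49.9% and 40.4% of all genes did. The share at 0 was 58.4% for potassium channels and 56.7% for the chloride and gap junction list, but 26.7% for sodium channels, 33.3% for calcium channels and 37.0% for the TRP and other channels. For potassium, 20 of 77 genes passed. Kcnh2, the ERG channel, led at 4128 reads and 55.6 FPKM (95% interval 53.9 to 57.3), above the tandem-pore leak channel Kcnk3 (26.2 FPKM) by a factor of 2.12 (95% interval 2.02 to 2.23). Kcna1, Kcna2, Kcna3 and Kcna4, the Shaker-type channels, had 0 reads each. Among sodium channels Scn8a had 5.26 FPKM and Scn3b 3.78, and 7 of 15 passed. Calcium channel genes were led by the beta subunits Cacnb3 (31.1 FPKM) and Cacnb1 (16.3 FPKM), with the N-type pore gene Cacna1b (11.4 FPKM) above the T-type genes Cacna1i (6.06 FPKM) and Cacna1g (4.87 FPKM). The pacemaker channel Hcn2 (51.3 FPKM), the acid-sensing channel Asic1 (30.5 FPKM), the lysosomal channel Mcoln1 (28.3 FPKM), the mechanosensitive channel Piezo1 (26.6 FPKM) and Trpv2 (26.1 FPKM) headed the next list, in which 23 of 46 passed. Of 60 chloride channel, gap junction and aquaporin genes 17 passed, Ano10 (38.7 FPKM) and Ano8 (18.7 FPKM), of the anoctamin family, being the highest. Gja1, the widespread gap junction gene connexin 43, was at 0. Counts that were not whole were those of Scn8a, Cacna1b and Ano10.

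Nearly all of the central carbon genes listed were read. Of 17 glycolysis genes 16 had at least 20 reads, with a median of 86.3 FPKM, and all 26 genes of the citric acid cycle and its entry had them, with a median of 28.2. Of all genes 49.9% did, with a median of 0.35 FPKM over the whole table. Gapdh (3320 FPKM), Aldoa (1225 FPKM), Pkm (759 FPKM) and Eno1 (710.3 FPKM) were the highest of the genes listed. Eno1b, a near copy of Eno1 that is not on the list, had 1146 FPKM, above Pkm and Eno1, and its count was not whole. Ldha, the lactate dehydrogenase subunit that favours lactate formation, had 19383 reads and 593 FPKM (95% interval 585 to 602), and Ldhb had 0 reads. In the citric acid cycle Sdhb, an iron-sulphur subunit of succinate dehydrogenase, had 15236 reads and 559 FPKM (95% interval 549.8 to 568), above Cs (144 FPKM), citrate synthase. Nnt, a mitochondrial transhydrogenase, was on 2 rows with 3.86 and 6.03 FPKM. All 7 pentose phosphate genes listed were read, Tkt (250.3 FPKM), a transketolase, being the highest. The KEGG pathways, which hold more genes than these lists, had lower shares: 41 of 66 genes of glycolysis and gluconeogenesis, 22 of 32 of the pentose phosphate pathway and 28 of 32 of the citrate cycle had at least 20 reads. The counts of Gapdh, Eno1 and Nnt were not whole.

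Serine and asparagine synthesis held some of the highest enzyme levels. All 14 genes of serine synthesis and one-carbon metabolism passed, beside 49.9% of all genes. Phgdh, the entry enzyme of serine synthesis, had 43055 reads and 953 FPKM (95% interval 944 to 962), and Asns, asparagine synthetase, had 27350 reads and 729 FPKM (95% interval 721 to 738). The following enzymes of the serine pathway were lower, Psat1 at 115 and Psph at 51.8 FPKM, and Shmt2, the mitochondrial enzyme that passes the carbon of serine to folate, had 310.3 FPKM. Sterol and fatty acid synthesis passed in 22 of 23 cases, with Fdps (266 FPKM), of isoprenoid synthesis, Acly (148 FPKM), which makes cytosolic acetyl-CoA, and Fasn (99.8 FPKM), fatty acid synthase, the highest. The desaturase Scd2 had 43.9 FPKM and its paralog Scd1 had 1 read. Liver-type enzymes of gluconeogenesis, urea synthesis and amino acid breakdown passed in 3 of 16 cases, Pck2 (99 FPKM), Asl (46.7 FPKM) and Ass1 (37.5 FPKM), whereas G6pc, Pck1, Fbp1 and Cps1 were at 0. Among transporters Slc3a2 (355 FPKM) and Slc7a5 (298 FPKM), the heavy and light chain of the large neutral amino acid exchanger, were the highest, followed by the glutamine transporter Slc1a5 (100.2 FPKM). Lactate carriers were led by Slc16a3, at 6920 reads and 160.0 FPKM (95% interval 156 to 164), above Slc16a1 by a factor of 15.1 (95% interval 14.1 to 16.1). Slc2a3, the neuronal glucose transporter, exceeded Slc2a1, the widespread one, by a factor of 7.2 (95% interval 6.58 to 7.89). Not whole were the counts of Scd2, Scd1, Pck2, Asl and Slc3a2.

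For metals, 11 of 17 genes of manganese and iron handling passed (64.7%), beside 49.9% of all genes. The ferritin light chain gene Ftl1 had 1931 FPKM and the heavy chain gene Fth1 170.1, a ratio of 11.4 (95% interval 11 to 11.7), and the count of Ftl1, which has many near-identical copies in the genome, was not whole. Atp13a2, a lysosomal ATPase, had 44.6 FPKM and the divalent metal transporter Slc11a2 had 17.4. The manganese importer Slc39a14 had 3.15 FPKM, while its relative Slc39a8 and the manganese exporter Slc30a10 were at 0 reads. Metallothionein reads came from Mt3 (8.6 FPKM), the brain-type gene, with Mt1 and Mt2 at 0. The counts of Slc11a2 and Slc39a14 were not whole.

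**Figure D4:**
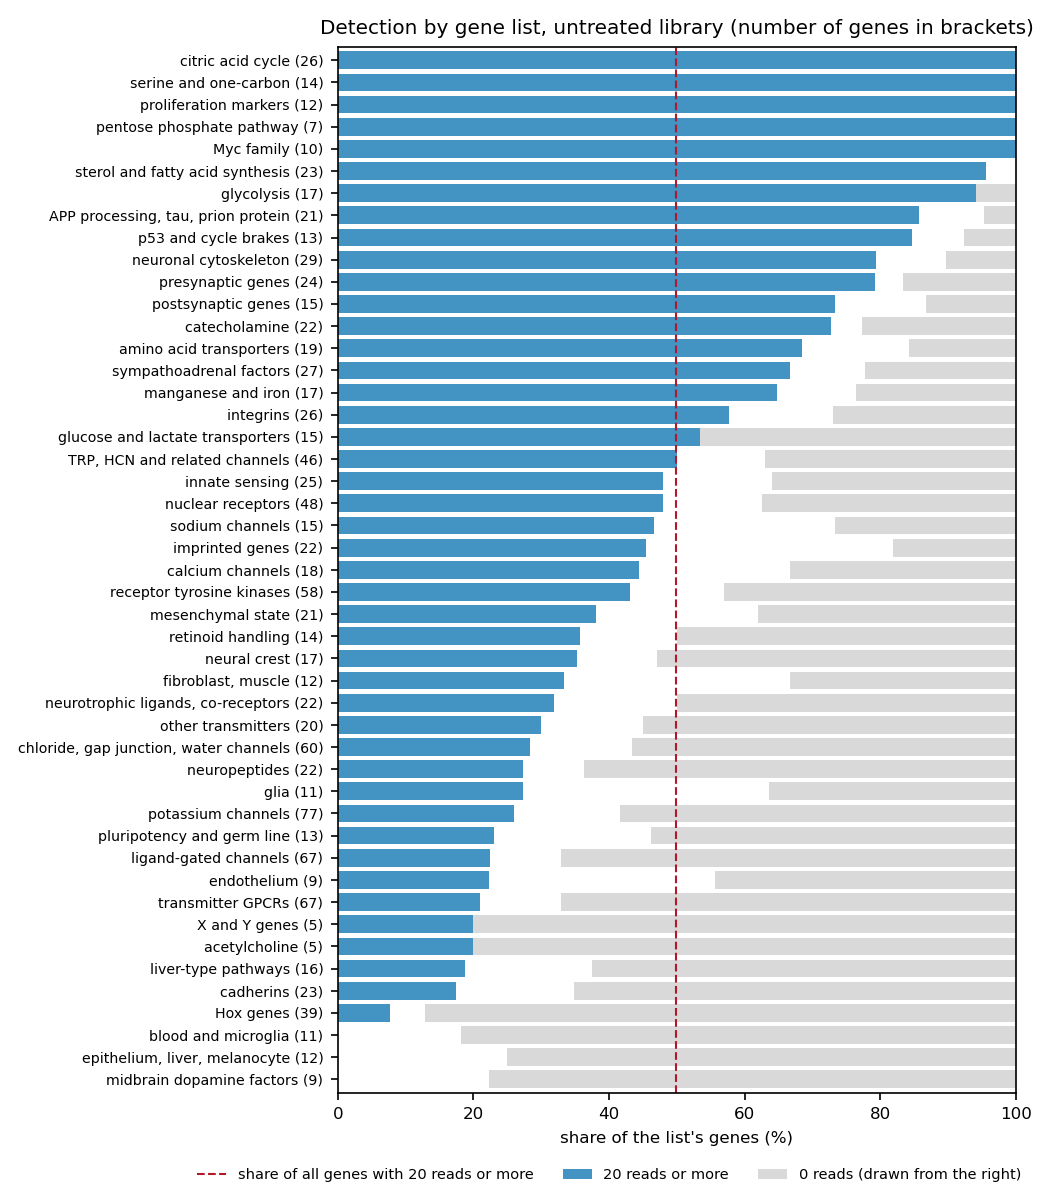
Share (%) of the genes of each of 47 lists that had at least 20 reads (blue, from the left) or 0 reads (grey, from the right) in the untreated total RNA library. The dashed line is the share of all genes with at least 20 reads, 49.9%; central metabolism and proliferation lists lie to its right, and transmitter receptor, cadherin and Hox lists to its left.

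Paralog choice was examined in 77 families, of which 74 had a gene with at least 20 reads. The leading gene, by FPKM, held at least 90% of the family's summed FPKM in 27 families, at least 50% but under 90% in 38, and under 50% in 9, with a median of 82.3%. In 15 families only 1 gene passed 20 reads, and in 40 all did. Of the 61 families with a ratio of the first to the second gene, the interval included 1 in 4: the pyruvate dehydrogenase kinases (Pdk2 and Pdk1), the E-type cyclins (Ccne1 and Ccne2), the Polycomb methyltransferases (Ezh2 and Ezh1) and the vesicular monoamine transporters. Outside the families as listed are the near copies Eno1b (1146 FPKM) and Hmga1b (27.3 FPKM), whose counts were not whole. With both added, 25 families were led at 90% or more, 14 had only 1 gene past 20 reads, and these 2 copies led their families at 60.1% and 76.1%. Counts are least firm here, because paralogs can share reads, and the counts of Ccne2 and Ezh2 were not whole.

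At several steps of glycolysis 1 gene held most of its family's FPKM. Hk1 (81 FPKM) exceeded Hk2 (8.63 FPKM) by a factor of 9.39 (95% interval 8.81 to 10.01), and Aldoa exceeded Aldoc by a factor of 638 (95% interval 525 to 783). Enolase was shared between Eno1b and Eno1, at 1146 and 710.3 FPKM, with the neuronal Eno2 at 42.3. Pgk1, Pgam1 and Ldha held all of their families' FPKM, with Pgk2, Pgam2 and Ldhb at 0. Phosphofructokinase was shared as well: Pfkm (69.8 FPKM), Pfkl (55.6 FPKM) and Pfkp (52.2 FPKM) lay side by side, Pfkm above Pfkl by a factor of 1.25 (95% interval 1.21 to 1.31). By reads not divided by length the order of Pfkm and Pfkl turned. In mitochondria Cox4i1 exceeded Cox4i2 by a factor of 436 (95% interval 329.9 to 589.9), and Slc25a5 exceeded Slc25a4, the adenine nucleotide carrier of heart and muscle, by a factor of 4.69 (95% interval 4.46 to 4.93). In this group Hk2, Eno1, Eno1b and Pfkp had counts that were not whole.

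In several families the widespread form led a neuronal form that was also read. The elongation factor Eef1a1 exceeded Eef1a2, the form of neurons and muscle, by a factor of 4.62 (95% interval 4.56 to 4.69), with Eef1a2 still at 442 FPKM. The splicing repressor Ptbp1 exceeded its neuronal paralog Ptbp2 by a factor of 37.3 (95% interval 33.2 to 42). Elavl1 (35.6 FPKM) was above the neuronal Elavl3 (7.87 FPKM) by a factor of 4.52 (95% interval 4.17 to 4.9). In tubulin the neuronal form led, Tubb3 exceeding Tubb4b (242 FPKM) by a factor of 3.1 (95% interval 3.03 to 3.17). Among splicing regulators Rbfox2 (29 FPKM) and Nova2 (10.4 FPKM) led, with Rbfox1 at 0.06 and Nova1 at 0.61 FPKM (1.08 with the other length). Counts that were not whole were those of Elavl1 and Elavl3.

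Signalling families were often uneven too. Prkaca exceeded Prkacb, both catalytic subunits of the cyclic AMP-dependent kinase, by a factor of 15.3 (95% interval 13.6 to 17.2), and Hras exceeded Nras by a factor of 3.38 (95% interval 3.06 to 3.75). With the other length Prkacb would have 3.15 FPKM in place of 5.77. Among the genes of calmodulin, the calcium sensor, Calm3 (227 FPKM) exceeded Calm2 (103 FPKM) by a factor of 2.2 (95% interval 2.12 to 2.3). Akt1 (65.7 FPKM) and Akt2 (56.5 FPKM) were close, differing by a factor of 1.16 (95% interval 1.11 to 1.22), and reads not divided by length put Akt2 first. Rac1 and Cdk4 (248 FPKM) stood nearly alone, with Rac3 at 0.32 FPKM and Cdk6 at 0 reads. Ccnd1 exceeded Ccnd3 by a factor of 2.1 (95% interval 1.95 to 2.26), and Ccnd2, the remaining D-type cyclin, had 0 reads. The beta-secretase paralogs were uneven: Bace2, at 4265 reads and 68.3 FPKM (95% interval 66.2 to 70.3), exceeded Bace1, the main neuronal enzyme of amyloid formation, by a factor of 16.1 (95% interval 14.2 to 18.3). The counts of Akt2 were not whole.

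**Figure D5:**
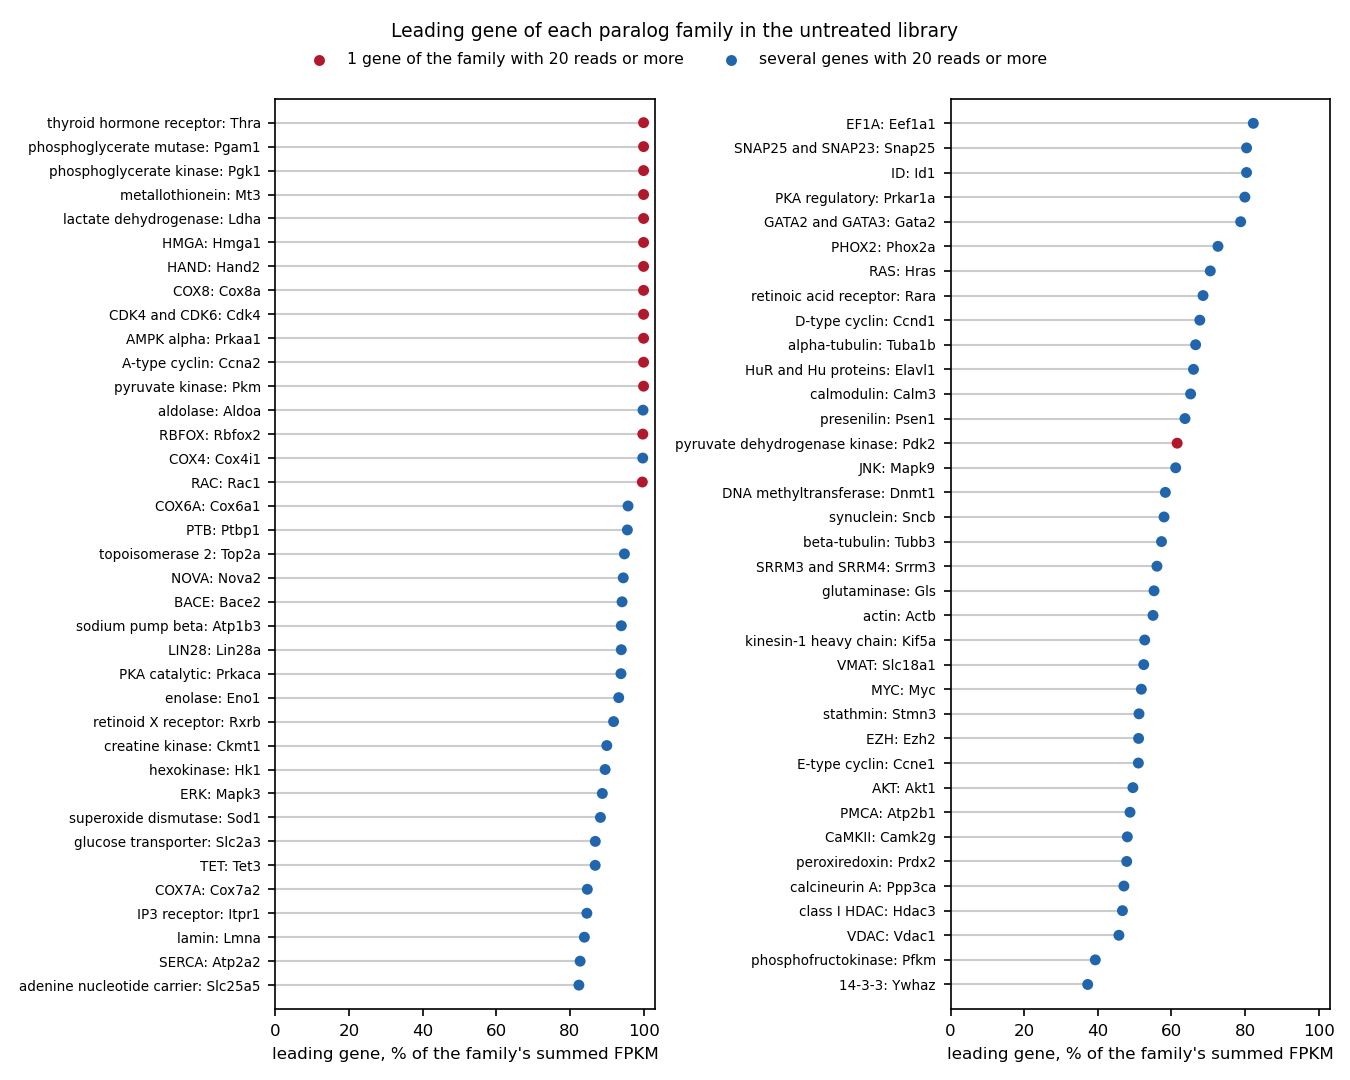
Share (%) of each family's summed FPKM held by its leading gene, for 73 of the 74 paralog families with a gene of at least 20 reads, untreated total RNA library; each label gives the family and its leading gene. Red points are the 15 families in which 1 gene passed 20 reads, with families as listed (without Eno1b and Hmga1b), and the median share over all 74 is 82.3%.

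Genes of the amyloid and tau list passed 20 reads in 18 of 21 cases (85.7%), beside 49.9% of all genes. The gamma-secretase subunit Psenen had 82.2 FPKM, Aplp1, a relative of App, had 58.8, Mapt, which encodes tau, had 44.2, App had 23.2 and the prion protein gene Prnp had 13.1. Of the synucleins, presynaptic proteins, Sncb had 210 reads and Sncg 96. All 12 proliferation genes listed were read and had a median of 22.2 FPKM, led by Cdk1 (135 FPKM), the mitotic kinase, and the replication genes Mcm2 (111 FPKM) and Pcna (94.4 FPKM). Of the brakes, Trp53, which encodes p53, had 4343 reads and 101 FPKM (95% interval 98.1 to 104), the cyclin kinase inhibitor Cdkn1a had 46.5 FPKM and Cdkn2a had 25.4. Rb1, the retinoblastoma gene, had 0.72 FPKM, and Cdkn2b, next to Cdkn2a in the genome, had 0 reads. Pluripotency and germ line genes passed in 3 of 13 cases, namely the let-7 inhibitors Lin28a (21.2 FPKM) and Lin28b (1.37 FPKM) and the telomerase gene Tert (2.15 FPKM), with Pou5f1, Zfp42, Dppa3 and Dppa5a at 0. Among imprinted genes Gnas (633 FPKM), a stimulatory G protein subunit, and Mest (90.2 FPKM) were the highest of 22, and Igf2 and Dlk1 were at 0. Among adhesion genes, the integrin list was led by Itgb5 (49.7 FPKM), and Itgb1 had 31.4 FPKM. At least 20 reads were found for 15 of 26 integrin genes (57.7%), beside 49.9% of all genes. Cadherins passed in 4 of 23 cases, led by Cdh22 (8.52 FPKM), with the neural cadherin Cdh2 at 49 reads and 0.52 FPKM (95% interval 0.385 to 0.687).

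Of the 8993 genes at 0 reads in the untreated library, 8024 were also at 0 in the Mn-treated library, 946 had under 20 reads there, and 23 had 20 or more. Counts were not whole in that library for 19 of these 23. The part that the division of reads between gene models has in such zeros was not tested. In the lists described here, 501 of 1102 genes had at least 20 reads (45.5%) and 461 had 0, of which 376 were at 0 in both libraries. Several large families were mostly at 0 reads, beside 40.4% of all genes. Of 1192 olfactory receptor genes 1134 had 0 reads, of 330 vomeronasal receptor genes 303, and of 53 keratin genes 47. All 57 keratin-associated protein genes of hair, all 22 major urinary protein genes and all 18 type I interferon genes were at 0. At the other end all 78 mitochondrial ribosomal protein genes and 37 of 39 proteasome genes had at least 20 reads, beside 49.9% of all genes.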

How the data were processed

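Total RNA of untreated N2a cells was measured in 1 library. The authors deposited an mRNA table with estimated counts and FPKM values per gene. The submitters' processing notes name the tools StringTie, Bowtie2 and fastp 0.18.0 and the build mm9. Not given in the sources used here are the counting program, the annotation, and the length and read total behind FPKM. Estimated counts of the deposited table were rounded for intervals only. FPKM values of the deposited table were used unchanged, and a ratio of 2 genes is a ratio of these. Intervals are exact Poisson for a level, Clopper-Pearson for a share and conditional binomial for a ratio, at 95%, from SciPy 1.17.1 under Python 3.11.15. In tests on simulated data for the untreated library, 95.2% of 11111 count intervals and 95.4% of 5555 ratio intervals held the true value. The simulated counts were Poisson, as the intervals assume, so a share near 95% was fixed in advance. These tests check the computation on counts alone, not transcript length, division of reads between gene models or PCR copies.

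The library held 13972460 reads, so that 20 reads, the minimum for a gene described here, is a small part of it. Columns were assigned to libraries by name, and 0 were left without a library. The gene lists, paralog families and members were chosen with earlier results of these data known. Named genes are the 30 genes of the mRNA table highest in FPKM outside the mitochondrial genome, and 4 markers. Added to them are up to 6 highest and up to 4 read-less members of each list, and the first 2 of each paralog family. From these the text gives a selection, and a few further list members (such as Alk, Cdh2 and Isl1) were added with their values known. Xist, Tsix, H19, Meg3 and Mb21d1 were looked up and not analysed here. Promoters are RefSeq sequences on GRCm38.p6, matched by symbol. Single values of a few genes are not reported here, and those genes are left out of the bar and family plots. Small RNA, lncRNA and circRNA tables were not used. Alternatives were no mitochondrial genes, shares of FPKM, other read minimums, whole counts only, a pseudocount of 1 FPKM, reads in place of FPKM and, chosen after seeing the data, another transcript length, summed rows and 2 near copies added to paralog families.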

Additional observations from a re-analysis of the deposited data

How the results depend on the processing

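The 100 genes with most reads held 30.1% of the reads, 29.3% without the mitochondrial genome and 43.0% when shares were taken of the summed FPKM. The counts of genes with at least 20 reads, of genes at 0, of list members and of families led at 90% or more stayed within 1.5 times under every alternative that was run. Among paralog pairs, reads not divided by length turned the log2 ratio of Pfkm over Pfkl to -0.037, of Akt1 over Akt2 to -0.049 and of Srrm3 over Srrm4 to -2.94. Pairs whose FPKM ratio had an interval that included 1 turned as well. These were Ccne1 over Ccne2 (-0.554), Ezh2 over Ezh1 (-0.548) and Slc18a1 over Slc18a2 (-0.115). With the length implied by the Mn-treated library, chosen after seeing the data, Srrm3 over Srrm4 was -0.071 and Ccne1 over Ccne2 was -0.080. The leading gene was the same in 68 of 74 families by reads, in 58 of 65 with whole counts only, in 74 of 74 with a pseudocount of 1 FPKM and in 72 of 74 with the other length. With the near copies Eno1b and Hmga1b added to their families, also chosen after seeing the data, 25 families in place of 27 were led at 90% or more, and the leading gene was the same in 72 of 74. Dividing reads by a stated transcript length was not run, because the table gives none. No paired analysis was possible because each group had 1 library. Leaving out a replicate was likewise not possible. At this depth a gene at 0 reads is limited only to 3 counts.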

Other observations

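Pathway annotation in the deposited table covers groups not listed above. These pathways were picked after their values were seen. Of 294 KEGG pathways with at least 20 genes, 4 had at least 20 reads for every gene: aminoacyl-tRNA biosynthesis (44 genes, median 11.1 FPKM), DNA replication (35 genes, 12.3), RNA polymerase (28 genes, 15.3) and protein export (27 genes, 17.2). The spliceosome had 125 of 131 and oxidative phosphorylation 116 of 131, where 49.9% of all genes had at least 20 reads. At the low end were olfactory transduction (44 of 1111), steroid hormone biosynthesis (7 of 87) and neuroactive ligand-receptor interaction (50 of 290).

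Reads of a few immune and sense genes stood out in families that were otherwise at or near 0. Il6, an inflammatory cytokine, had 223 reads and 8.42 FPKM (95% interval 7.35 to 9.60), and Il23a had 237 reads and 7.3 FPKM. Of 31 interleukin genes 23 had 0 (74.2%), beside 40.4% of all genes. The chemokine genes Cxcl1 and Ccl25 had 53 and 39 reads. Of the 20 olfactory receptor genes with at least 20 reads, 16 had counts that were not whole, the highest, Olfr1385 (2.88 FPKM), included. In the clustered protocadherins, adhesion genes from which single neurons choose, 20 of 58 had at least 20 reads (34.5%), beside 49.9% of all genes. Pcdhgc3 was the highest at 13.3 FPKM, and 14 of the 20 counts were not whole. Irf3 (24.3 FPKM), a factor of the antiviral response, led the 25 innate sensing genes. Of these 12 had at least 20 reads (48.0%), near the 49.9% of all genes.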
